A study of Vitis vinifera with 12 samples.

Results

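Flame Seedless, a red-skinned table grape without seeds (Vitis vinifera), was sampled as berries at 40, 50, 60 and 80 days after full bloom, and messenger RNA of the fruit was sequenced in 3 libraries per age, lettered a, b and c. The 92 most abundant gene models of these berries are described here, out of 22580 identifiers measured. They were chosen by their level alone: a mean of at least 1000 FPKM over the 12 libraries, where FPKM counts sequenced fragments per length of a gene model and per total of fragments mapped in the library. They make up 0.407% of the identifiers. All 12 libraries came from the same cultivar and tissue, with no treatment or genotype named in the labels. The extraction protocol states that RNA of biological replicates was pooled, so it is not known whether the letters stand for separate plants, and p-values measure only the spread between libraries, which may be technical.

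A grape berry grows in phases: an early phase of cell division and expansion with acid storage, a pause, and a ripening phase in which the berry softens, stores sugar and, in red cultivars, colours. As in most plant organs, a small number of transcripts makes up a large share of the messenger RNA pool of a berry, and the leading transcripts change as it develops. Such leading transcripts in fleshy fruit often encode small stress, defence, cell wall or storage proteins, or parts of the translation machinery. The deposited table gives identifiers without gene names, and none of its identifiers (0 of 22580) occurs in the RefSeq gene table for Vitis vinifera used here (29591 genes), so no gene name or function is attached to any identifier below. For the same reason the labelled tissue was not checked against marker genes. In identifiers of the VIT_ form the first digits name the chromosome, the digits after the s a stretch of sequence, called a block here, and the digits after the g the order of gene models in it. Neighbouring and near-identical gene copies can share reads, and how such reads were counted is not given in the sources used here, so the split between copies is uncertain.

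The selected gene models held between 38.8% and 48.6% of the summed FPKM of a library. Their share was 41.5, 38.8 and 41.1% at 40 days, 46.1, 43.1 and 48.3% at 50 days, 44.3, 42.4 and 41.4% at 60 days and 48.6, 45.9 and 41.8% at 80 days. The 40-day libraries lay below every 50-day library, while the 60-day and 80-day libraries overlapped with other ages. By age the share averaged 40.5% ± 1.47 at 40 days (SD, n = 3 here and below), 45.8% ± 2.60 at 50 days, then 42.7% ± 1.47 at 60 days, and ended with 45.5% ± 3.45 at 80 days. At 80 days the libraries were spread widest. Because the gene models were chosen on these values, the share is a description and was not tested. It is a ratio within a library, so it does not depend on how libraries are scaled, and the summed FPKM itself ranged from 971004 to 1212608 per library. In RNA of berries, fewer cells of a type and less RNA per cell cannot be told apart.

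While the total share moved by a few percentage points, its make-up turned over. The gene models called higher at 80 than at 40 days, 23 in number (the test is given below), held 23.1% ± 1.70 of all FPKM at 80 days, against 7.23% ± 0.752 at 40 days. Those called lower, 18 in number, held 3.15% ± 0.458 at 80 days, against 15.1% ± 1.23 at 40 days. The 51 others held 19.2% ± 1.43 at 80 days and 18.2% ± 0.849 at 40 days. Both shifts had their largest step before 50 days, when the higher class stood at 17.0% ± 1.37 and the lower class at 8.34% ± 0.941. VIT_05s0049g00760, the most abundant gene model, was also left out of both the class and the library sum. The higher class then held 4.83% ± 0.315, 10.7% ± 0.845, 12.8% ± 1.71 and 19.05% ± 1.07 at 40, 50, 60 and 80 days. Its step between 60 and 80 days, the longest interval, was then slightly larger than that between 40 and 50 days. The gap between these steps was small beside the SDs, so their order is not settled. At 60 days the whole higher class held 18.3% ± 2.08 and the lower class 5.41% ± 0.974. The classes come from the same 80-day and 40-day values, so the direction of these shares follows from how the classes were made and only their size is informative.

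**Figure D1:**
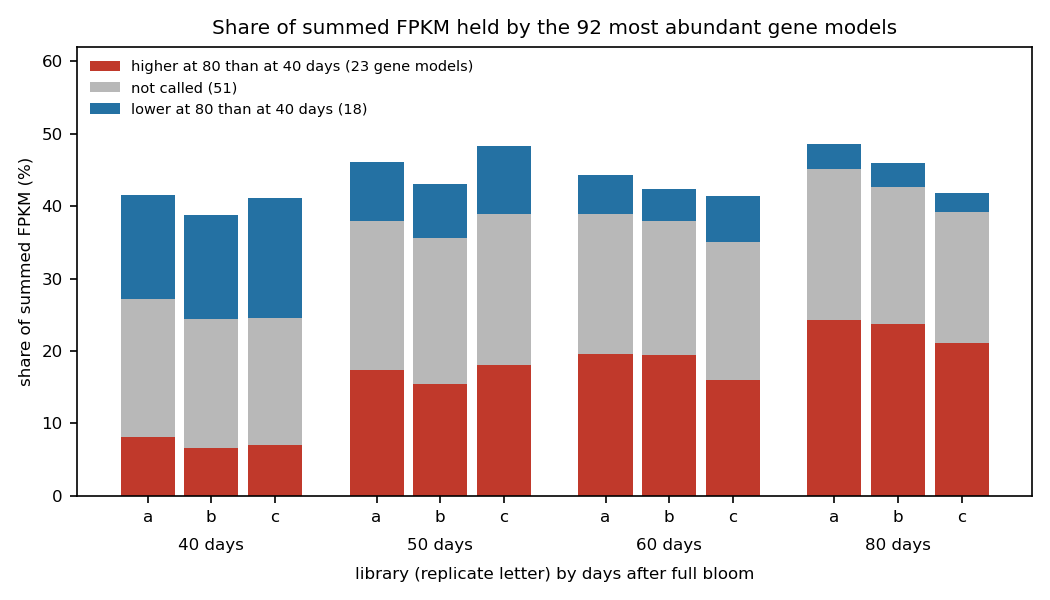
Share of the summed FPKM (%, vertical axis) held by the 92 gene models in each of the 12 libraries, grouped by days after full bloom, with the parts held by gene models called higher at 80 than at 40 days, not called, and called lower. The top of the bars lies between 38.8% and 48.6%, while the lower class shrinks to 3.15% ± 0.458 at 80 days, against 15.1% ± 1.23 at 40 days.

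Abundance was concentrated in few gene models even within this group. The 10 with the highest mean held 20.4% ± 1.23 of all FPKM at 40 days, then 27.0% ± 2.76 at 50 days, 24.7% ± 1.26 at 60 days and 26.9% ± 4.09 at 80 days. The other members held 20.1% ± 0.765, 18.8% ± 0.352, 18.0% ± 0.550 and 18.6% ± 0.686 at the same ages. Between 6 and 10 gene models were enough to make up 50% of the group's FPKM in a library. The 80-day libraries a and b needed the fewest, 6 each, and 40-day library b the most, 10.

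Not every gene model was above 1000 FPKM throughout. Of the 92, 59 had a mean of at least 1000 FPKM at each of the 4 ages, 17 at 3 ages and 16 at 2 ages. For 12 the mean over the other ages was under 1000 FPKM once their highest age was set aside. Such a gene model entered through 1 age and had to differ between ages to some extent, so a test of its difference is not independent of its choice. For any of these 12 named below, the differences are a description, and an adjusted p only shows how the call was made. All 3 gene models just inside the limit entered through 1 age. Just inside the limit stood VIT_15s0021g02700 with a mean of 1032 FPKM, VIT_00s0984g00010 with 1007 and VIT_19s0085g00370 with 1005. Just outside stood VIT_17s0000g06380 with 990.3 FPKM, VIT_18s0001g03220 with 989 and VIT_14s0030g01150 with 986. In any one library, 71 to 85 of the gene models were also among that library's own 92 most abundant, fewest in 40-day library c.

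The lead passed between 3 gene models. VIT_05s0049g00780 led in 40-day library a, VIT_19s0014g02740 in 40-day libraries b and c, VIT_05s0049g00760 in every 50-day and 60-day library, and VIT_05s0049g00780 again in every 80-day library. The leading gene model alone held between 4.08% and 7.68% of a library's FPKM. VIT_05s0049g00760 had 32177, 21506 and 24349.8 FPKM at 40 days, 76324, 63016 and 91576 at 50 days, 72658, 63949 and 55906 at 60 days and 76146, 53549 and 45015 at 80 days. Its 40-day libraries lay below all later ones, and from 50 days on the ages overlapped. VIT_05s0049g00780 had 52343, 43822 and 42214 FPKM at 40 days, 67880.2, 50087 and 70119 at 50 days, 45192, 43742 and 44539 at 60 days and 80876, 59587 and 45989.9 at 80 days. Its 40-day libraries overlapped with those of every later age, while its 60-day libraries lay below all 50-day and 80-day ones. Its log2 difference between 80 and 40 days was 0.40 ± 0.31 (SE; limma adjusted p = 0.283), which was not called. VIT_19s0014g02740 had 42476, 45677 and 68267 FPKM at 40 days, 19776, 18473 and 29062 at 50 days, 14681, 9074 and 11493 at 60 days and 7448, 5735 and 4641 at 80 days. Its libraries fell without overlap from each age to the next.

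The other gene models among the 10 most abundant followed different courses. VIT_08s0056g01610, the third by mean, had 10785, 8858 and 11817 FPKM at 40 days, 26903, 22164 and 31128 at 50 days, 25612, 26016 and 22867 at 60 days and 44657, 45473 and 37564 at 80 days, with all 80-day libraries above and all 40-day libraries below the rest. VIT_18s0072g00380 had 24543, 23424 and 30792 FPKM at 40 days, 21623, 15015 and 28085 at 50 days, 14384, 14289 and 18207 at 60 days and 15887, 14066 and 8601 at 80 days, where neighbouring ages overlapped and the 80-day libraries lay below the 40-day ones. VIT_16s0022g00960 had 16479.8, 13844 and 15239 FPKM at 40 days, 21454, 22362 and 28078 at 50 days, 18639, 15391 and 15551 at 60 days and 15139, 12518 and 13184 at 80 days, with all 3 libraries of 50 days above those of the other ages. VIT_12s0059g00610 had 12733, 9850.2 and 11623 FPKM at 40 days, 12669, 13321 and 15380.5 at 50 days, 18947, 15735 and 16479 at 60 days and 22929.9, 17138 and 17455 at 80 days. Its 80-day libraries were all above the 40-day ones, and its log2 difference between these ages was 0.74 ± 0.20 (SE; adjusted p = 0.00735), under the minimum of 1. VIT_11s0016g04920 had 7994, 5710.4 and 3739 FPKM at 40 days, 14629, 14115 and 14034 at 50 days, 18672, 13866 and 8627 at 60 days and 20447, 12292 and 23298 at 80 days, with a narrow spread at 50 days and a wide one at 60 and 80 days (80 against 40 days 1.70 ± 0.35, adjusted p = 0.00159).

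**Figure D2:**
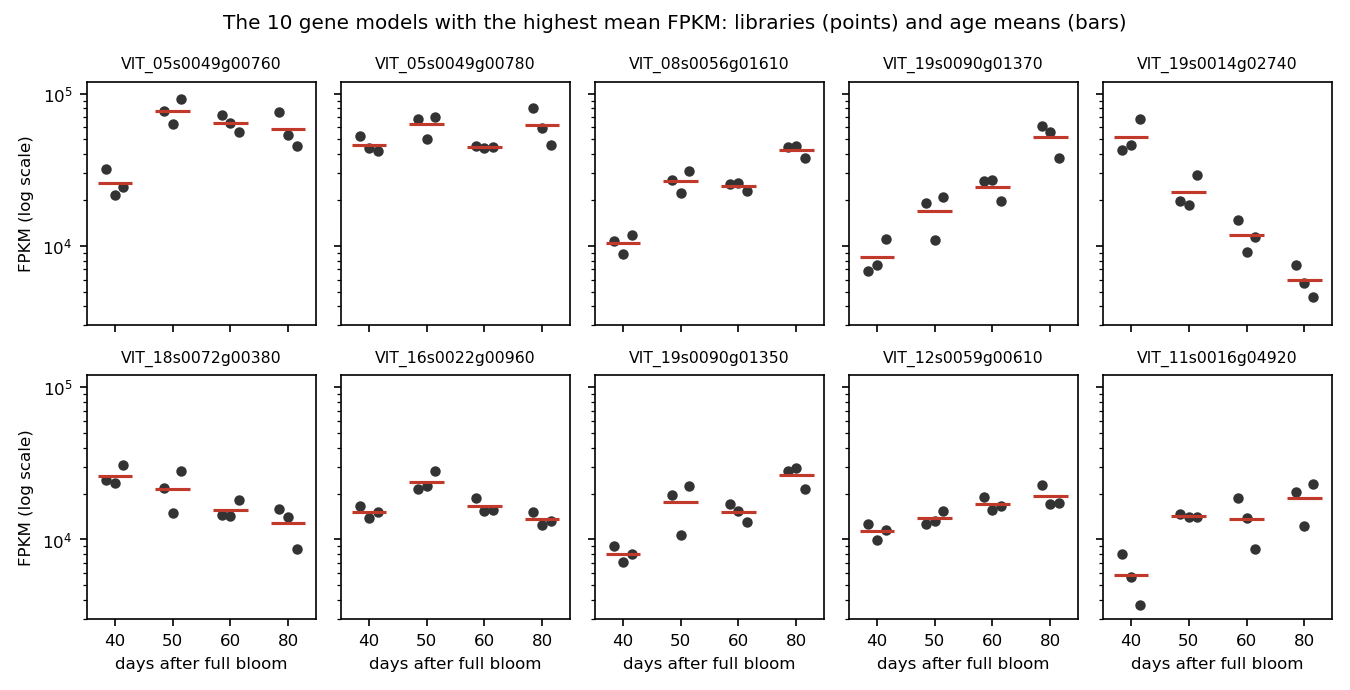
FPKM (log scale) of the 10 gene models with the highest mean in every library (points) and as age means (bars) at 40, 50, 60 and 80 days after full bloom. VIT_19s0014g02740 falls to 5941 ± 1415 FPKM at 80 days, against 52140.2 ± 14058 FPKM at 40 days, while VIT_19s0090g01370 reaches 51772 ± 12459 FPKM, against 8436 ± 2271 FPKM.

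The ranking as a whole shifted by steps. When the 10 highest age means were listed for each age, 14 gene models appeared in at least 1 list, all of them among the 92, 5 appeared in all 4 lists, and 6 stood in the lists of both 80 and 40 days. The dissimilarity of the make-up (Bray-Curtis, computed on each gene model's part of the group's FPKM, from 0 for identical to 1 for nothing shared) had a median of 0.0912 between 40-day libraries, 0.0774 between 50-day, 0.0814 between 60-day and 0.0936 between 80-day libraries. Between ages the median was 0.243 for 50 against 40 days, 0.127 for 60 against 50 days, 0.160 for 80 against 60 days and 0.382 for 80 against 40 days. In each of these comparisons the lowest pair between ages lay above the highest pair within either age, most narrowly for 80 against 60 days (0.131 between and 0.127 within).

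Differences between ages were tested with limma on log2(FPKM + 1) over all 14579 gene models that reached 1 FPKM in at least 3 libraries, and calls needed both a log2 difference of 1 or more and p under 0.05 after adjustment by Benjamini and Hochberg. All 92 of the most abundant gene models passed this filter. Their selection used the mean over all ages, which the level at any one age helps to set. The 12 that entered through 1 age had to differ between ages. This can raise the number of calls over the background, here and in the counts below, by an amount that was not tested. Between 80 and 40 days 41 of them were called, or 44.6%, where the figure over all tested gene models was 21%. Higher at 80 days were 23, against a background of 6.95%, and lower 18, against 14.0%. Among gene models with a mean of 300 to under 1000 FPKM, 24.5% were called. Large values were not measured more tightly here: the median standard error of this difference was 0.169 for the group and 0.141 for all tested gene models. The median difference was 0.40 in the group and 0.00240 over all tested gene models.

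Of the 59 gene models at 1000 FPKM or more at every age, none of which entered through a single age, 11 were called higher at 80 days (18.6%, background 6.95%) and 7 lower (11.9%, background 14.0%). Their share of falls was under the background, while that of the whole group, 19.6%, was above it. The 59 were chosen by their means at 40 and 80 days too, which leaves out falls to under 1000 FPKM in advance. Rises from under 1000 FPKM were left out in the same way, so these shares are a description only. Among the 12 that entered through 1 age, 3 were called higher and 4 lower. In 70 of the 92 (76.1%) the 80-day and 40-day libraries did not overlap, where 65.5% of all tested gene models showed this. The called gene models were all among them. By level, 23 of the 92 had their highest age mean at 40 days, 14 at 50, 8 at 60 and 47 at 80 days. The same count over all tested gene models was not made, so these numbers describe the members only.

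The largest rise to 80 days was that of VIT_06s0004g04650. It had 1684, 1589 and 740.5 FPKM at 40 days, 4674, 5365 and 4669 at 50 days, 7477, 7052 and 4331 at 60 days and 16165, 22808 and 19652 at 80 days, and the ages followed each other upward, with 50-day and 60-day libraries overlapping. Its log2 difference was 3.94 ± 0.31, adjusted p = 2.76e-06 (SE; limma, here and below). VIT_10s0116g00570 had 727, 575 and 734 FPKM at 40 days, 2657, 2389.5 and 2576 at 50 days, 4175, 4155 and 2739.6 at 60 days and 8066, 7843 and 9958 at 80 days, without overlap between any ages, a difference of 3.67 ± 0.18, adjusted p = 2.59e-07. By mean it had 8622 ± 1162 FPKM at 80 days against 679 ± 89.7 FPKM at 40 days, and 60-day library c stood near the 50-day level. VIT_19s0090g01370, the fourth by mean, had 6823, 7454 and 11033 FPKM at 40 days, 19086, 10976 and 20968 at 50 days, 26509, 26879 and 19578 at 60 days and 61634, 55912 and 37770.1 at 80 days, where the 50-day libraries overlapped with those of both 40 and 60 days (difference 2.62 ± 0.32, adjusted p = 4.42e-05). In FPKM this was the largest gain of the group: it held 4.47% ± 0.967 of all FPKM at 80 days, against 0.818% ± 0.204 at 40 days.

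Several strong rises were mostly complete by 60 days. VIT_15s0046g01500 had 984, 790.5 and 759 FPKM at 40 days, 2104, 2288 and 1995 at 50 days, 3463, 3713 and 2818 at 60 days and 3165, 4544 and 4487 at 80 days (80 against 40 days 2.26 ± 0.17, adjusted p = 2.15e-06). VIT_18s0001g03580 had 1503, 1142 and 1349.8 FPKM at 40 days, 3576, 3692 and 3813 at 50 days, 4762, 4727 and 3976 at 60 days and 5297, 5922 and 6097 at 80 days (2.12 ± 0.13, adjusted p = 7.9e-07). VIT_02s0033g01330 had 1395, 984 and 1509.6 FPKM at 40 days, 3607, 3585 and 3961 at 50 days, 4600.2, 4296 and 3545 at 60 days and 5006, 4698 and 5037 at 80 days (1.94 ± 0.16, adjusted p = 4.22e-06). In all 3 the 40-day libraries lay far below every later one, and of the 3 VIT_15s0046g01500 overlapped between 60 and 80 days. VIT_01s0146g00260 had 399.6, 246 and 466 FPKM at 40 days, 664, 1122 and 364 at 50 days, 1899, 2022 and 1162 at 60 days and 1660.3, 1445 and 1792 at 80 days, where 50-day library c lay within the 40-day range and 50-day library b just under 60-day library c (2.18 ± 0.37, adjusted p = 0.000441). This gene model was among those that entered through 1 age, so its difference is a description. VIT_08s0056g01610, whose values are given above, rose later as well, with 60-day libraries within the 50-day range and 80-day libraries above all others (2.03 ± 0.22, adjusted p = 2.2e-05).

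The 23 rises ranged from 1.06 to 3.94 on the log2 scale, with a median of 1.63, and 7 were of at least 2. Their adjusted p was at most 0.00937. In 15 of them the age means increased at every step. VIT_05s0020g04080 was one, with 722 ± 92.3 FPKM at 40 days, then 1108 ± 57.4 at 50 days, 1680.4 ± 177 at 60 days and 2419 ± 128 at 80 days and a difference of 1.75 ± 0.12, adjusted p = 1.07e-06. VIT_06s0009g02230, with 1098 ± 31.6 FPKM at 40 days, then 1426 ± 167 at 50 days, 1758 ± 209 at 60 days and 2418 ± 106 at 80 days, was another (1.14 ± 0.12, adjusted p = 1.31e-05). The rise of VIT_05s0049g00760, the most abundant gene model by mean, was smaller at 1.15 ± 0.32, adjusted p = 0.00937. It was not called without 80-day library a (0.94, under the minimum difference) or after quantile normalization (0.60), and without a filter on low values its adjusted p was 0.433.

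Falls to 80 days reached further than rises. They ranged from 1.07 to 6.51 in size, with a median of 2.14, and 11 of the 18 were of at least 2. The adjusted p was at most 0.00939, and in 16 the age means decreased at every step. VIT_00s0187g00160, which lies on unplaced sequence, had 6346, 8097 and 4907 FPKM at 40 days, 1176, 1802 and 1243 at 50 days, 533, 159.6 and 553 at 60 days and 58.1, 51.1 and 107 at 80 days. Its libraries separated by age at every step, and the difference between 80 and 40 days was -6.51 ± 0.45, adjusted p = 1.32e-06. It had entered the group through 40 days alone, since its mean over the other ages was 632 FPKM. Some fall was therefore built into its choice, and its differences are a description. VIT_13s0064g01260 had 5679, 4404 and 5079 FPKM at 40 days, 2543, 2137 and 3374 at 50 days, 589, 257 and 815 at 60 days and 176, 68.6 and 32.5 at 80 days, again without overlap (-6.08 ± 0.54, adjusted p = 5.4e-06). Its 80-day library c, at 32.5 FPKM, was the lowest value of any member in any library.

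VIT_14s0081g00030 had 6784, 6863 and 4719 FPKM at 40 days, 2954, 2842 and 2404 at 50 days, 648, 547 and 1122 at 60 days and 202, 756 and 362 at 80 days, with overlap only between 60 and 80 days (-3.98 ± 0.41, adjusted p = 1.35e-05). VIT_13s0019g04280 had 2109, 2338 and 2488 FPKM at 40 days, 1433, 1162 and 1559.8 at 50 days, 476, 244 and 619 at 60 days and 342, 204 and 113 at 80 days, where 60-day library b lay within the 80-day range (-3.53 ± 0.38, adjusted p = 1.97e-05). VIT_19s0014g02740 fell by the largest amount in FPKM and held 0.512% ± 0.101 of all FPKM at 80 days, against 5.05% ± 1.26 at 40 days (log2 difference -3.13 ± 0.29, adjusted p = 7.83e-06). VIT_02s0025g04330 had 11433, 10132 and 6011 FPKM at 40 days, 2818, 3559 and 2341 at 50 days, 1223, 722 and 946 at 60 days and 871, 1439.8 and 1683 at 80 days. Its lowest mean was at 60 days, and the 60-day and 80-day libraries overlapped (-2.79 ± 0.31, adjusted p = 2.23e-05). Smaller in level were VIT_18s0001g01140, at 457 ± 212 FPKM at 80 days against 2363 ± 232 at 40 days (-2.46 ± 0.28, adjusted p = 2.41e-05), and VIT_06s0061g00550, at 488 ± 46.8 against 2305 ± 606 FPKM (-2.20 ± 0.27, adjusted p = 4.74e-05). Both of these and VIT_13s0019g04280 had entered through 40 days, so their falls are a description as well.

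The fall of VIT_18s0072g00380, sixth by mean, was the smallest called (-1.07 ± 0.30, adjusted p = 0.00939). It was not called without 40-day library c (-0.95) or without 80-day library c (-0.80), and its adjusted p was 0.131 with no filter on low values. VIT_01s0010g02030, the eleventh by mean, had 16212 ± 4463 FPKM at 40 days, then 14514 ± 2398 at 50 days, 10209.6 ± 2775 at 60 days and 6708 ± 159 at 80 days (-1.23 ± 0.26, adjusted p = 0.0018).

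**Figure D3:**
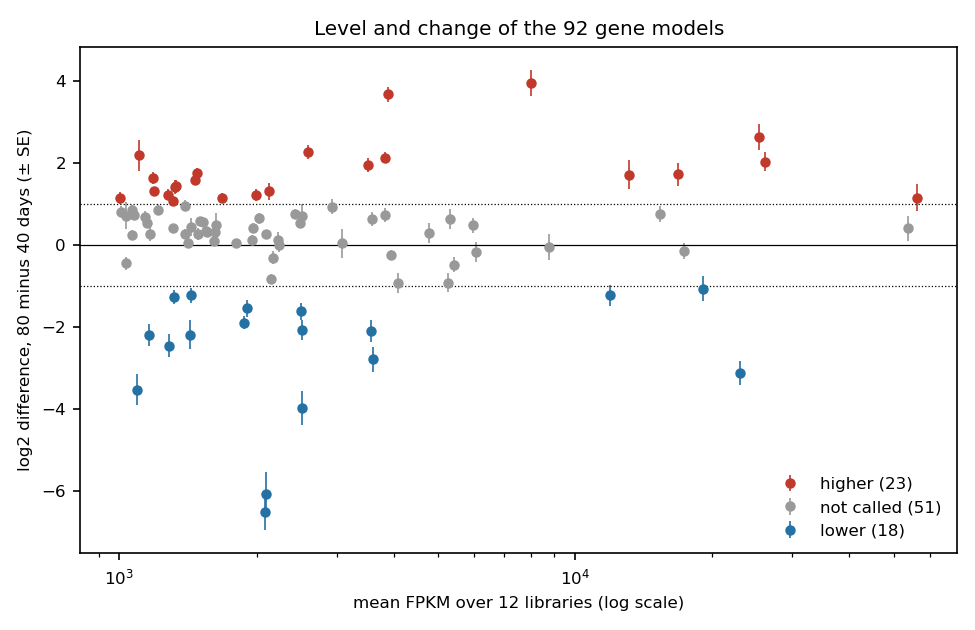
Log2 difference between 80 and 40 days (80 minus 40, with SE, vertical axis) against the mean FPKM over 12 libraries (log scale) for each of the 92 gene models, coloured by whether it was called higher, not called or called lower. The dotted lines mark the minimum difference of 1 in either direction, and falls reach -6.51 while rises reach 3.94.

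By interval, rises led first. Between 50 and 40 days 15 of the 92 were called (16.3%, background 8.03%), 12 higher against a background of 2.09% and 3 lower against 5.93%. Among the 351 gene models with a mean of 300 to under 1000 FPKM, 8.26% were called, 19 higher and 10 lower. More rises than falls in this interval were thus not particular to the members. The rises among the members included VIT_06s0004g04650 (1.96 ± 0.31, adjusted p = 0.0011), VIT_10s0116g00570 (1.91 ± 0.18, adjusted p = 7.1e-05) and VIT_05s0049g00760 (1.57 ± 0.32, adjusted p = 0.00428). VIT_02s0012g00500 rose in this interval and changed less after it, with 659.8 ± 72.7 FPKM at 40 days, then 1638 ± 184 at 50 days, 1584 ± 132 at 60 days and 1981 ± 197 at 80 days (1.31 ± 0.12, adjusted p = 7.1e-05). With no filter on low values the rise of VIT_05s0049g00760 was not called (adjusted p = 0.353). The falls were those of VIT_00s0187g00160 (-2.19 ± 0.45, adjusted p = 0.00408), VIT_02s0025g04330 (-1.63 ± 0.31, adjusted p = 0.00285) and VIT_19s0014g02740 (-1.21 ± 0.29, adjusted p = 0.00989), the last of which was not called with no filter (adjusted p = 0.115). The comparisons of neighbouring ages share the libraries of the middle age, so their calls are not independent of each other.

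Falls led next. Between 60 and 50 days 10 of the 92 were called (10.9%, background 3.68%), 9 lower against a background of 2.53% and 1 higher against 1.15%. Gene models with a mean of 300 to under 1000 FPKM showed the same lean, with 5.41% called, 17 lower and 2 higher. The largest fall of a member was that of VIT_13s0064g01260 (-2.40 ± 0.54, adjusted p = 0.015), followed by VIT_00s0187g00160 (-1.93 ± 0.45, adjusted p = 0.0173) and VIT_14s0081g00030 (-1.89 ± 0.41, adjusted p = 0.0132). VIT_11s0016g00210 had 5887, 6227 and 5129 FPKM at 40 days, 4619, 5397 and 5499 at 50 days, 3002, 2229 and 1808 at 60 days and 4333, 2526 and 2473 at 80 days, lower in every 60-day library than in any 50-day library (-1.17 ± 0.24, adjusted p = 0.0107). The one rise, that of VIT_01s0146g00260 (1.35 ± 0.37, adjusted p = 0.035), was not called with the replicate letter as a block (adjusted p = 0.0525), nor without 50-day library a or c or 60-day library a or b (adjusted p between 0.0833 and 0.126). The number of calls depended on which libraries entered, with 3 without 60-day library b, 4 without 50-day library c and 6 without 50-day library a. The falls of VIT_13s0064g01260 and VIT_14s0081g00030 were among those lost without 60-day library b (adjusted p = 0.0644 and 0.0618), the first also without 50-day library c (0.0586), and that of VIT_11s0016g00210 measured -0.99, under the minimum, without 60-day library c. With quantile normalization 2 were called higher and 6 lower.

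In the last interval, between 80 and 60 days, 8 of the 92 were called (8.70%, background 3.60%), 5 higher against a background of 1.52% and 3 lower against 2.08%. Of gene models with a mean of 300 to under 1000 FPKM, 6.55% were called, 11 higher and 12 lower. The split of the members depended on the scaling. With quantile normalization 3 were called higher and 6 lower, and when each library was scaled to the sum of the other gene models, a step that moved the median difference of all tested gene models to -0.11, the numbers were 3 and 7. The largest changes were falls, those of VIT_13s0064g01260 (-2.74 ± 0.54, adjusted p = 0.00732) and VIT_00s0187g00160 (-2.39 ± 0.45, adjusted p = 0.00605). The other fall, that of VIT_15s0021g02700, is given below. The largest rise was that of VIT_06s0004g04650 (1.66 ± 0.31, adjusted p = 0.00605). VIT_10s0116g00570 was also called higher (1.24 ± 0.18, adjusted p = 0.0024). VIT_08s0040g01820 had 1075, 1207 and 1071 FPKM at 40 days, 939, 712 and 1048 at 50 days, 727, 903 and 618 at 60 days and 1934, 1756 and 1654 at 80 days, with every 80-day library above all others (1.26 ± 0.16, adjusted p = 0.00141). It had entered through 80 days, so this rise is a description. VIT_07s0005g00660 had 3571, 4449 and 5525 FPKM at 40 days, 6443, 4882 and 8489.9 at 50 days, 3588, 2569 and 3409.9 at 60 days and 5811, 6787 and 8271 at 80 days, lower at 60 than at 50 days (-1.03 ± 0.24, adjusted p = 0.0189) and higher again at 80 than at 60 days (1.12 ± 0.24, adjusted p = 0.0106). The first call was lost without 50-day library a or c or 60-day library b (adjusted p between 0.0567 and 0.0839), with no filter on low values (adjusted p = 0.055), and under quantile normalization (-0.76) and scaling to the other gene models (-0.99). The second measured 0.98 without 60-day library b and 0.99 without 80-day library c, both under the minimum, as were its values under quantile normalization (0.85) and that scaling (0.99). The rise of VIT_19s0090g01370 (1.07 ± 0.32, adjusted p = 0.0379) was lost under 10 of 20 alternatives, among them those without 50-day library a, any 60-day library or 80-day library a or b (adjusted p between 0.0527 and 0.137). With the replicate letter as a block its adjusted p was 0.0568.

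**Figure D4:**
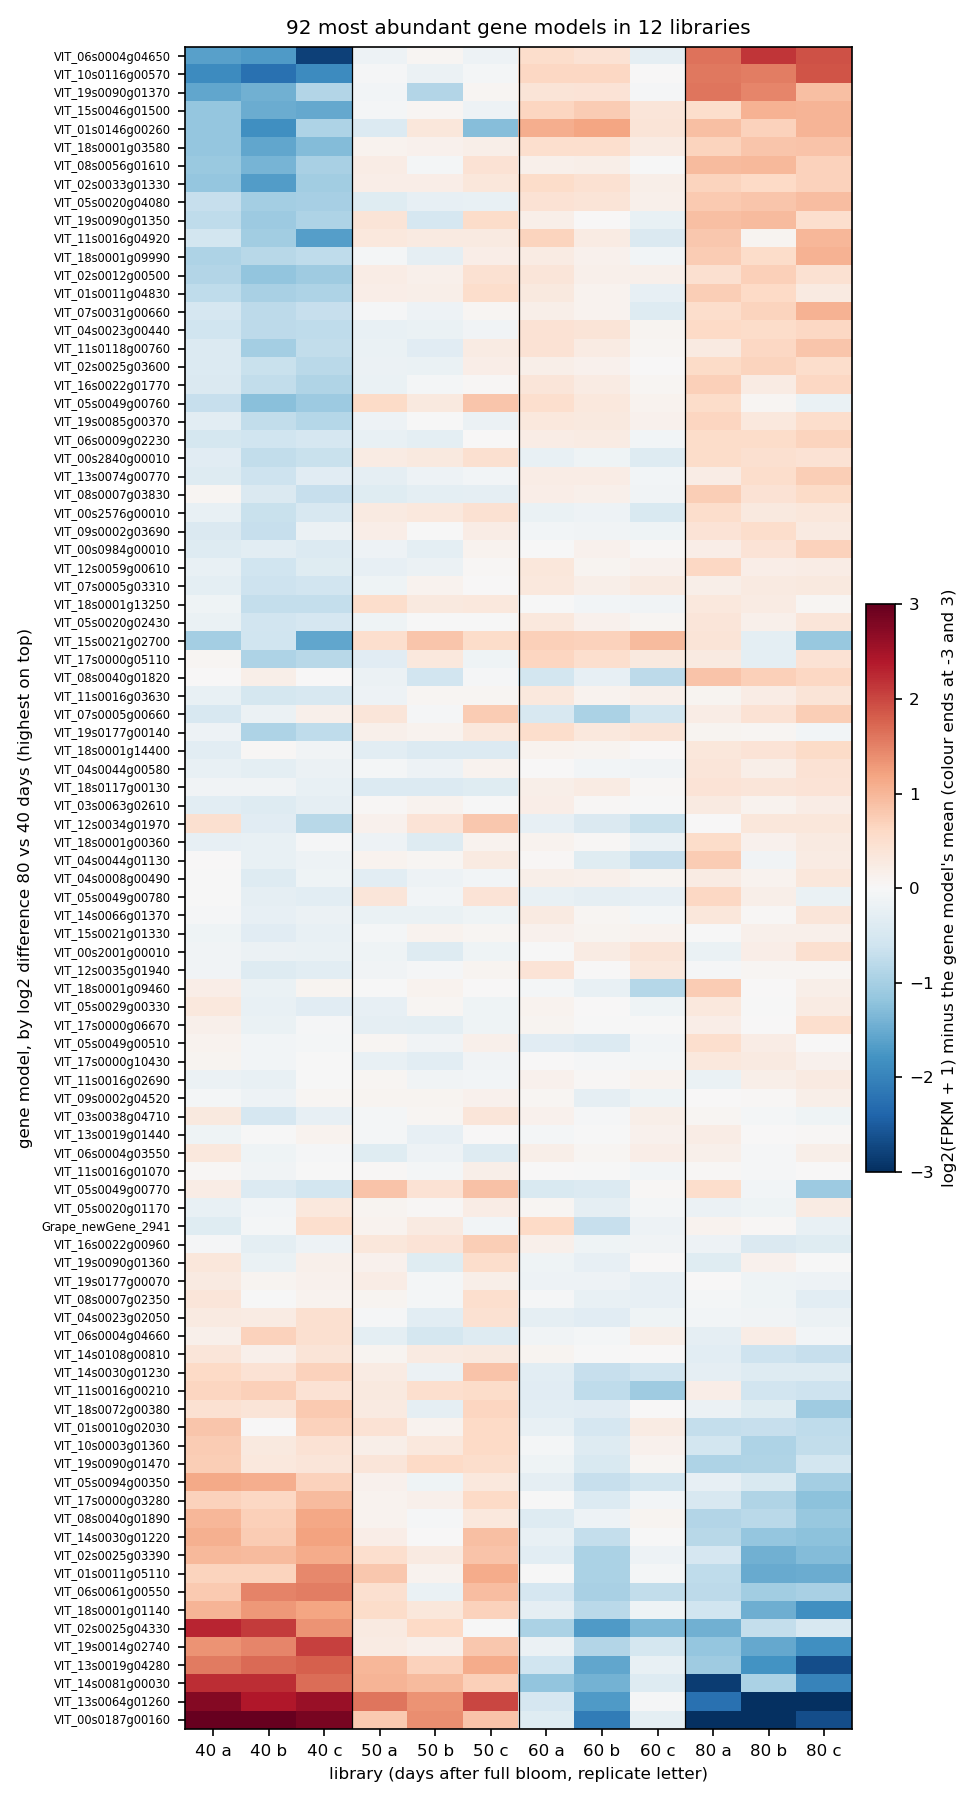
Log2(FPKM + 1) of the 92 gene models (rows, ordered by the difference between 80 and 40 days, highest on top) in the 12 libraries (columns), each minus the gene model's own mean over the libraries, with colours ending at -3 and 3. Rows at the top are low at 40 days and high at 80 days, rows at the bottom are high at 40 days and low at 80 days, and most rows between them are pale.

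Over the 4 ages, 48 of the 92 changed (limma F test with a range of age means of at least 1; 52.2%, background 24.3%). Called in every interval was VIT_00s0187g00160 alone, and 20 gene models were called between 80 and 40 days but in no single interval. How often either occurs among all tested gene models was not counted, so these numbers describe the members only. A peak at a middle age, called higher at 50 or 60 days than at both 40 and 80 days, was found in 1 gene model, where 0.364% of all tested gene models had one. This was VIT_15s0021g02700, with 443, 587 and 302 FPKM at 40 days, 1262, 1595 and 1296 at 50 days, 1463, 1434 and 1708 at 60 days and 1165, 727 and 404 at 80 days (80 against 60 days -1.13 ± 0.33, adjusted p = 0.0359). Its 80-day libraries were widely spread, it also entered through 1 age, and the fall was not called without 80-day library b or c or without any of the 60-day libraries (adjusted p between 0.0664 and 0.116). A low at a middle age, called below both 40 and 80 days, was found by limma in 0 of the members and in 0.494% of all tested gene models. Without any condition on p, the minimum difference against both ages was met by 0 members as well, so the limma count is the same at an unadjusted p.

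Most of the group, 51 gene models, was not called between 80 and 40 days. Their differences lay between -0.93 and 0.95, and 40 were positive and 11 negative. Signs over all tested gene models were not counted, so these numbers describe the members only. Libraries were not scaled in the fit, and the summed FPKM averaged 1155426 ± 49522 at 80 days against 1029258 ± 40439 at 40 days (SD). An adjusted p under 0.05 was reached by 27 of the 51 with a difference under 1, so not called does not mean equal. The narrowest course among gene models at 1000 FPKM or more at every age was that of VIT_11s0016g01070, with 1837, 1672 and 1779.6 FPKM at 40 days, 1859.6, 1736 and 2044 at 50 days, 1821, 1793 and 1700.2 at 60 days and 1834, 1751 and 1824 at 80 days. All 12 of its values lay between 1672 and 2044 FPKM, and its age means spanned 0.09 on the log2 scale. Next came Grape_newGene_2941 (0.19), VIT_13s0019g01440 (0.19), VIT_05s0020g01170 (0.20) and VIT_19s0090g01360 (0.22). Grape_newGene_2941, the only member among the 789 gene models labelled as new, had 6612, 8149.8 and 12083 FPKM at 40 days, 9106, 10364 and 8073 at 50 days, 12885, 5264 and 7643 at 60 days and 9147, 8674 and 7301 at 80 days. Its age means lay close together, while the libraries within 40 days and within 60 days were far apart.

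Members were also compared by their place in the identifier order. In 4 blocks, 10 members stood next to each other with no other identifier of the table between them. The run VIT_05s0049g00760, g00770 and g00780 held 7.24% ± 0.9997 of all FPKM at 40 days, then 13.1% ± 1.27 at 50 days, 11.1% ± 0.375 at 60 days and 10.6% ± 2.56 at 80 days. The middle gene model, VIT_05s0049g00770, was far weaker, with 3340.3, 2146 and 1945 FPKM at 40 days, 5177, 3849 and 5227 at 50 days, 2087, 2154 and 2892 at 60 days and 4121, 2680.3 and 1346 at 80 days, and its direction between 80 and 40 days was not settled (difference 0.031 ± 0.35, SE). The log2 ratio of VIT_05s0049g00760 over VIT_05s0049g00780 was -0.84 ± 0.17 (SD) at 40 days, then 0.30 ± 0.11 at 50 days, 0.52 ± 0.18 at 60 days and -0.091 ± 0.062 at 80 days. The order of these neighbours therefore turned between 40 and 50 days in every library and turned back by 80 days.

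The run VIT_19s0090g01350, g01360 and g01370 held 2.22% ± 0.209 of all FPKM at 40 days, then 3.72% ± 0.944 at 50 days, 4.48% ± 0.444 at 60 days and 7.24% ± 1.27 at 80 days. Its outer gene models rose to 80 days while the middle one was not called. VIT_19s0090g01350 had 9006, 7086 and 7976 FPKM at 40 days, 19714, 10715 and 22312 at 50 days, 17187, 15301 and 13055 at 60 days and 28358, 29275 and 21559 at 80 days (80 against 40 days 1.71 ± 0.28, adjusted p = 0.000333). VIT_19s0090g01360 had 7518, 5195 and 6617 FPKM at 40 days, 6486, 4660.4 and 8606 at 50 days, 5439, 5061 and 6038 at 60 days and 4595, 6510.2 and 5936 at 80 days (difference -0.18 ± 0.24, adjusted p = 0.527). The log2 ratio of VIT_19s0090g01360 over VIT_19s0090g01370 was -3.17 ± 0.54 (SD) at 80 days, against -0.37 ± 0.46 at 40 days, without overlap between the libraries of these ages.

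The pair in block VIT_06s0004 also parted. VIT_06s0004g04660 had 5895, 8533 and 7403 FPKM at 40 days, 4288, 3649.6 and 4027 at 50 days, 4897, 5026 and 5909.7 at 60 days and 4409, 6146 and 4993 at 80 days, highest by mean at 40 days, and was not called (80 against 40 days -0.49 ± 0.18, adjusted p = 0.0341), while its neighbour VIT_06s0004g04650 showed the largest rise of the group. The log2 ratio of VIT_06s0004g04650 over VIT_06s0004g04660 was 1.91 ± 0.055 (SD) at 80 days, against -2.52 ± 0.76 at 40 days. In block VIT_14s0030 every 80-day library lay below every 40-day library for both neighbours, and 1 of them was called. VIT_14s0030g01220 had 4513, 3664 and 4959.6 FPKM at 40 days, 2458, 2158 and 3997 at 50 days, 1839, 1306 and 2137 at 60 days and 1215, 967 and 921 at 80 days (-2.08 ± 0.25, adjusted p = 3.65e-05). VIT_14s0030g01230 had 7532, 6624 and 7964 FPKM at 40 days, 5876, 4349 and 8896 at 50 days, 3966, 3044 and 3325 at 60 days and 4075, 3786 and 3794 at 80 days, a difference of -0.92 ± 0.23, adjusted p = 0.00445, which is under the minimum. These ratios compare FPKM, which is per length of gene model, and were not tested. Whether neighbours share reads was not tested, since no sequence of these gene models was used here.

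**Figure D5:**
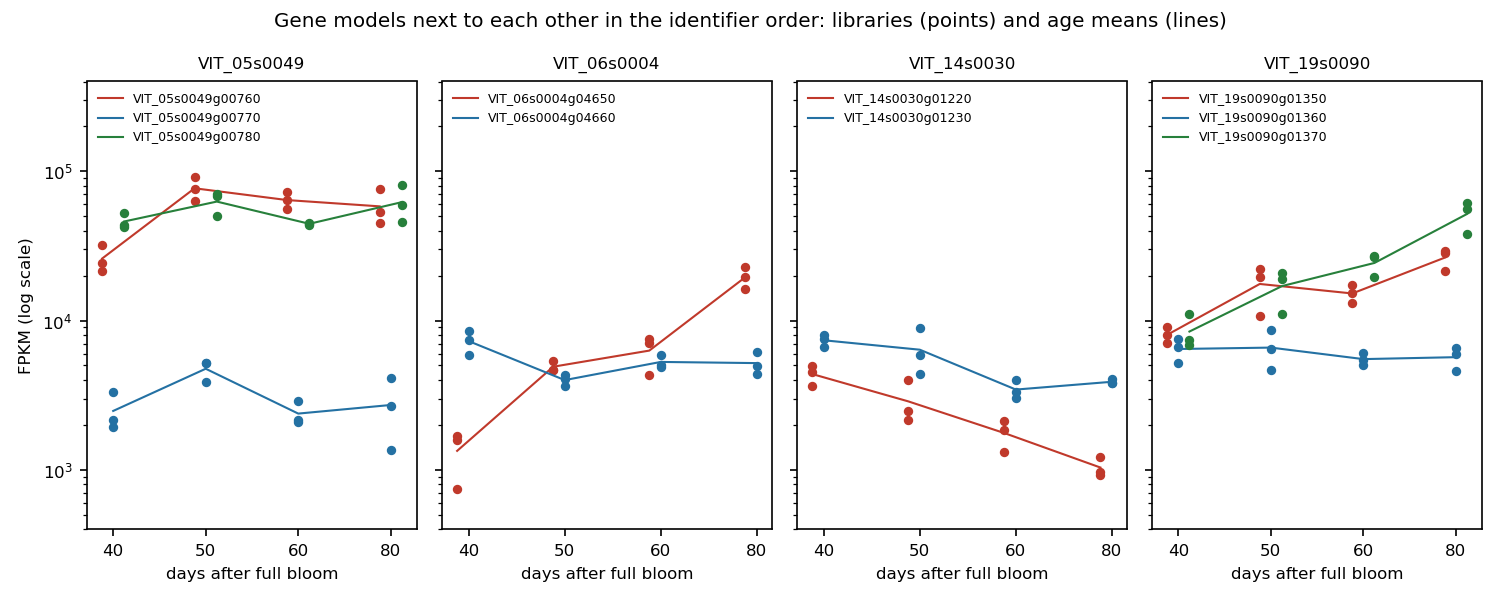
FPKM (log scale) of the 10 gene models that stand next to each other in the identifier order, in 4 panels by block, with every library (points) and the age means (lines) at 40, 50, 60 and 80 days after full bloom, drawn evenly spaced. In block VIT_19s0090 the outer gene models climb while VIT_19s0090g01360 stays between 5512 and 6584 FPKM by age mean.

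By chromosome, members with VIT_ identifiers came from every one of the 19 chromosomes and from unplaced sequence. Chromosomes 5 and 18 held 9 each and chromosome 19 held 8. Per identifier in the table, members were most frequent on chromosome 19, with 0.876% of 913 identifiers, and on chromosome 5, with 0.755% of 1192. Averaged over the 12 libraries, members on chromosome 5 held 11.4% of all FPKM and those on chromosome 19 held 7.53%, most of it in the runs described above. The 5 members on unplaced sequence held 0.683%.

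The spread between libraries of one age was not smaller in this group than elsewhere. The median standard deviation within an age on the log2 scale was 0.212 for the members, 0.142 for gene models with a mean of 300 to under 1000 FPKM and 0.170 for all tested gene models. It exceeded 0.5 in 5 members. How many reads stand behind a value is unknown, as no counts are given.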

How the data were processed

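RNA was measured by sequencing in 12 libraries of Flame Seedless berries. The authors deposited 1 table of FPKM values with 22580 identifiers. Per the submitters' processing notes, Trimmomatic 0.36, FastQC, TopHat2, Cufflinks and edgeR were used, named without their roles. The genome build is not given in the sources used here, nor are annotation and filters. Per the labels' protocols, polyadenylated RNA was made into directional libraries. Columns were matched to samples by the library code in the labels.

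Shares were computed as a gene model's FPKM over the sum of its library. Where gene models were left out as an alternative, that sum left them out too. Tests used limma 3.58.1 (R 4.3.3) on log2(FPKM + 1), a pseudocount of 1, with 1 mean per age, a trended prior variance, no scaling between libraries, and the filter and thresholds given above. The pseudocount makes differences of low gene models smaller than they are. The fit was also run on simulated data with independent normal noise. Such data follow the model, so this run cannot test pooled replicates or the lack of scaling, and nothing here rests on it. Descriptions used Python 3.11.15 and pandas 2.3.3. Depth is unknown, so no counting error is given.

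The members and the lists of what to describe were chosen with earlier results of these data known. Named gene models are the 10 with the highest mean, the leaders of any library, the 8 largest called rises and 8 largest called falls at 80 against 40 days, called peaks and lows at a middle age, the 5 narrowest courses, 3 on either side of the limit, and neighbours. Those named by interval, by level or as examples beyond these were chosen after their values were seen. Lists by product name were planned and not run, since no identifier carries a name. Alternatives were other pseudocounts, filters and scalings, no minimum difference, a block for the replicate letter, each library left out, other limits for the group, and, added after seeing the data, no trend in the prior variance. The letters were not treated as pairs: deviations of libraries with the same letter from their age means correlated from -0.298 to 0.249, over 0.1 in 4 of 18 pairs. For libraries with different letters the range was -0.247 to 0.408, over 0.1 in 7 of 36 pairs.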

Additional observations from a re-analysis of the deposited data

How the results depend on the processing

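Without a minimum difference, 68 members passed for 80 against 40 days, 40 for 50 against 40, 21 for 60 against 50, 27 for 80 against 60 and 73 at any age, since the rule itself is looser. The backgrounds given above hold for the rule with the minimum difference and cannot be set beside these counts. The other planned settings kept each count of the main setting within 1.5 times its value, except that leaving out single libraries gave 3 to 12 calls for 60 against 50 days. No filter on low values lowered every count, to 39 for 80 against 40 days, 10 for 50 against 40, 7 for 60 against 50, 6 for 80 against 60 and 42 at any age. The count of 10, against 15 in the main setting, stands at that limit. Leaving out single libraries gave 40 to 43 calls for 80 against 40 days, 14 to 21 for 50 against 40, 6 to 10 for 80 against 60 and 44 to 51 at any age. With the replicate letter as a block (replicate block), the counts were 41, 15, 10 and 7 for these comparisons in the order given first, and 46 at any age. Without a trend in the prior variance, chosen after seeing the data, the counts were 41, 15, 10, 8 and 48. Quantile normalization moved the median difference of all tested gene models between 80 and 40 days to 0.11. Of 420 values for the 21 named members called between these ages, 414 kept the call. The exceptions were those of VIT_05s0049g00760 and VIT_18s0072g00380 given above, and a choice by size makes such stability likely. The difference of VIT_05s0049g00770 turned to -0.0084 with scaling to the other gene models and ranged from -0.34 to 0.47 when libraries were left out.

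The shares depend on where the limit is set, as they must. Where VIT_05s0049g00760 or the gene models labelled as new were left out, they were also taken out of the library sum. In age order, the whole share was 48.2%, 53.0%, 50.2% and 52.7% with a limit of 500 FPKM (208 gene models), 34.6%, 40.0%, 36.6% and 39.3% with 2000 FPKM (46), 34.6%, 41.3%, 38.6% and 41.1% with 1000 FPKM at every age, and 39.0%, 41.8%, 38.8% and 42.6% without VIT_05s0049g00760. For the class called higher at 80 days, the limit of 2000 FPKM gave 6.35%, 15.6%, 16.6% and 21.05%, that at every age 6.42%, 15.5%, 16.3% and 20.4%, and leaving out VIT_05s0049g00760 4.83%, 10.7%, 12.8% and 19.05%. For the class called lower, the values were 16.8%, 9.40%, 6.08% and 3.54% with 500 FPKM, 13.2%, 7.12%, 4.62% and 2.70% with 2000 FPKM and 10.9%, 6.39%, 4.48% and 2.63% at every age. For the others they were 23.7%, 25.9%, 24.9% and 24.9%, 15.1%, 17.3%, 15.4% and 15.6% and 17.3%, 19.5%, 17.9% and 18.0%, then 18.7%, 22.0%, 20.3% and 20.2% without VIT_05s0049g00760 and 17.5%, 19.9%, 18.4% and 18.7% without gene models labelled as new. VIT_05s0049g00760 is not one of these others, so their higher share without it reflects only the smaller library sum. Under every limit the higher class grew and the lower class shrank between 40 and 80 days, which the way the classes are made fixes. Leaving out single libraries gave a whole share of 40.0 to 41.3% at 40 days, 44.6 to 47.2% at 50, 41.9 to 43.3% at 60 and 43.9 to 47.3% at 80 days. With 3 libraries per age, leaving 1 out cannot move a mean by as much as 1 SD. These ranges are therefore a description and no check of stability.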

Other observations

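A limit on the mean over all ages leaves out gene models that are abundant only for a time. Outside the group, 35 gene models reached a mean of 1000 FPKM at 1 age or more, 15 of them highest at 40 days, 2 at 50, 3 at 60 and 15 at 80 days. The highest such mean was that of VIT_13s0067g02930, with 1936, 2172 and 2552 FPKM at 40 days, 1429, 844 and 1807 at 50 days, 181, 113 and 262 at 60 days and 56.0, 42.8 and 21.1 at 80 days. VIT_08s0007g04780 had 2105, 2069.8 and 1927 FPKM at 40 days, 749, 595 and 939 at 50 days, 247, 142 and 243 at 60 days and 136, 80.8 and 70.0 at 80 days. Both had values at 80 days far below their values at 40 days in all libraries. VIT_19s0014g02730, next in number to VIT_19s0014g02740, which led in 40-day libraries b and c, had 1198, 1343 and 2473 FPKM at 40 days, 433, 483 and 679 at 50 days, 375, 218 and 309 at 60 days and 175, 147 and 121 at 80 days, and was lower at each later age, as VIT_19s0014g02740 was. VIT_01s0127g00460, with a mean over all libraries of 985 FPKM, went the other way. It had 629, 574 and 586 FPKM at 40 days, 722, 677 and 739.6 at 50 days, 1054, 1014 and 952 at 60 days and 1409, 1618 and 1842 at 80 days, with every age above the one before. These gene models were chosen after their values were seen.

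Among the 4186 pairs of members, some kept nearly the same ratio in all 12 libraries. The standard deviation of the log2 ratio over the libraries had a median of 0.659 over the pairs and was lowest, at 0.0789, for VIT_07s0005g03310 and VIT_11s0016g03630, whose ratio stayed between 1.12 and 1.31. VIT_00s2840g00010 and VIT_00s2576g00010, both on unplaced sequence, had a ratio between 0.947 and 1.22 (standard deviation 0.0913 on the log2 scale), so that they were close in level as well as in course. VIT_00s2840g00010 had 996, 754 and 791 FPKM at 40 days, 1491, 1533 and 1751 at 50 days, 1084, 1148 and 953 at 60 days and 1840.2, 1738 and 1683 at 80 days. VIT_00s2576g00010 had 996, 731 and 836 FPKM at 40 days, 1404, 1469 and 1615 at 50 days, 1017, 1055 and 852 at 60 days and 1678, 1427 and 1494 at 80 days. Whether these share reads was not tested. Both pairs were picked from many after their values were seen, so they carry no test.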
